A study of Mus musculus with 6 samples.

Results

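The 10 genes described here encode subunits of cohesin (Smc1a, Smc3, Rad21, Stag1 and Stag2) and of condensin (Smc2, Smc4, Ncapd2, Ncapg and Ncaph). They were taken by name from the 26814 genes of the deposited count matrix, with earlier results of these data known. All 10 reached 1 CPM (a gene's count relative to the total of its library) in 3 or more libraries and were tested, as were 15009 genes in all. The CPM values given below are after TMM scaling of the libraries. The samples were top lip tissue of adult female mice (2 to 6 months) on a C57BL/6J background, 3 WT and 3 homozygous for the Gtf2ird1 tm1Hrd allele (KO), and the RNA of each mouse gave 1 library. The allele is carried in every cell, and the lips of KO mice were overgrown and wrinkled, so a piece of lip may hold different cells in the 2 genotypes. In bulk tissue, fewer cells of a type and less RNA per cell cannot be told apart.

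Cohesin and condensin are ring-shaped complexes built on a pair of SMC proteins, long ATPases whose heads are bridged by a further subunit. Cohesin holds sister chromatids together from DNA replication until anaphase and also forms chromatin loops in cells that do not divide, whereas condensin compacts chromosomes for mitosis. In skin, division is confined mainly to the basal epidermis and the hair follicle, and condensin genes are expressed mainly in dividing cells, whereas cohesin is made widely.

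The 4 SMC genes are shown first, because they give the complexes their name and are the members that the study singled out in these same libraries. Each codes for an ATP-binding (Walker A) loop, and the 8 codons of that loop are printed 5′ to 3′ from the GENCODE transcripts of GRCm38, with the 12 bases common to all 4 genes in capitals. They lie at coding bases 94 to 117 in Smc1a, Smc3 and Smc2 and at 331 to 354 in Smc4.
Smc1a: GGacccAATGGctcTGGtAAgtca
Smc3: GGcagaAATGGctcTGGaAAaagc
Smc2: GGtttaAATGGtagTGGaAAatcc
Smc4: GGaccaAATGGcagTGGaAAatcc
The condensin pair, Smc2 and Smc4, shared 20 of the 24 bases, and the cohesin pair, Smc1a and Smc3, shared 15. The lowest identity was that of Smc1a and Smc2, with 14.

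Of the 10 members, 7 have an entry in the RefSeq promoter table of GRCm38.p6, which gives 250 bases before and 50 after the annotated start. The 3 condensin promoters below are shown because Smc2 and Ncapg had the largest fold changes of the members and Ncapd2 one of the smallest. Capitals mark TTTGAA, the letters of the cell cycle homology element, and CCAAT, the box bound by NF-Y, on either strand. The Smc2 promoter (chr4:52438971-52439270, plus strand), the Ncapg promoter (chr5:45669675-45669974, plus strand) and the Ncapd2 promoter (chr6:125191537-125191836, minus strand) read as follows.
Smc2: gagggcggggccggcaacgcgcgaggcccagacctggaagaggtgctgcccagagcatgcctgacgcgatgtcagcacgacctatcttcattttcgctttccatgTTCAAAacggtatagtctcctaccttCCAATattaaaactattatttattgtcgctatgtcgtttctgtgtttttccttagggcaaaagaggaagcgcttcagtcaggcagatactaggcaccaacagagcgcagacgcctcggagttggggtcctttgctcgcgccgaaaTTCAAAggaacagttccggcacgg
Ncapg: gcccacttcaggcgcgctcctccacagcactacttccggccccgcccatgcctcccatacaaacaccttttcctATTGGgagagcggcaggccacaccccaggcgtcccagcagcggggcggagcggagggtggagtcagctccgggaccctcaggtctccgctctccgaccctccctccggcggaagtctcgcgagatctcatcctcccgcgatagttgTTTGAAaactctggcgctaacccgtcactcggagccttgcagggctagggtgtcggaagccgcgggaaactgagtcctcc
Ncapd2: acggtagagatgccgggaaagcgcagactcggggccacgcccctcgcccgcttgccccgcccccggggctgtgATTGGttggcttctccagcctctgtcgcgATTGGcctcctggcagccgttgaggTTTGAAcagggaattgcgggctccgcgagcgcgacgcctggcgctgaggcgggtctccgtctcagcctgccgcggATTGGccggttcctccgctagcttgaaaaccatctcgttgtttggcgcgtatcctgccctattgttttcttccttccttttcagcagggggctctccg
All 3 hold both motifs. TTTGAA was found at -145 and 26 from the start in Smc2, at -30 in Ncapg and at -123 in Ncapd2, and the promoters of Stag1, Smc3, Smc1a and Ncaph held none. This motif was present in 17.9% of the 32851 promoters in the table. CCAAT was present in 5 of the 7 member promoters (also in Smc1a and Stag1) and in 37.4% of all. An E2F-type motif, TTTCCCGC or TTTGGCGC on either strand, was found in 4 of the 7 (Ncapg, Ncapd2, Stag1 and Smc1a) and in 1.56% of all. GGATTA, letters that GTF2IRD1 is known to bind, was found in 0 of the 7 and in 7.06% of all. Ncapg and Ncapd2 each held all 3 of the motifs found, with TTTGAA at different positions. Whether the motifs relate to the members' values was not tested. The matches are letters only, and occupancy was not measured.

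The libraries held 20164081 to 29491767 counts on genes. Gtf2ird1, the targeted gene, lay at 70.0 to 78.1 CPM in the WT libraries and at 144 to 166 CPM in the libraries labelled KO. Its level was thus higher in the libraries labelled KO. The paper describes GTF2IRD1 as able to regulate its own transcription, and the reason for the higher level was not tested. A count per gene does not say which allele a read came from or whether protein is made. Directions are therefore given for libraries by their label. Over all tested genes, 657 were called higher in KO and 314 lower (edgeR's quasi-likelihood test, Benjamini-Hochberg adjusted p under 0.05), which is 4.38% and 2.09%. Scaling changed this split, to 714 and 180 with DESeq2's size factors. Library KO 3 stood apart from the other 2 KO libraries: without it, 2496 genes were called higher and 2395 lower, and the members' results are given both with and without it.

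All 10 members had a higher mean in the KO libraries, and 0 of 10 passed the threshold in either direction. The median log2 fold change of the 10 was 0.85, against -0.02 over all tested genes, of which 7208 had a positive value. At an unadjusted p under 0.05, 5 members were higher in KO (Smc1a, Smc3, Smc2, Smc4 and Ncapg), beside 13.5% of all tested genes, and 0 were lower. In 3 members (Smc1a, Rad21 and Smc2) every KO library was above every WT library, as in 13.5% of all tested genes. Both the edgeR exact test and DESeq2's Wald test called these 5 higher, where they called 7.76% and 8.93% of all genes. The study used these tests on these same libraries, and the exact test here gave its numbers, 1165 genes higher and 1073 lower. The study named the 4 SMC genes among the 5 as increased. None of the 5 calls is therefore independent evidence of a direction. The summed level of the 10 was 528.6 ± 53.3 CPM in WT and 819.3 ± 169.8 CPM in KO (SD, n = 3 each). The lowest KO sum, 628.8 CPM in KO 3, was above the highest WT sum of 584.3 CPM, but the members did not share in this alike. In KO 3, Rad21, Ncapd2 and Ncaph were at 196.1, 107.6 and 29.2 CPM, above every WT library. Smc3, Stag1, Smc4 and Ncapg lay within the WT range in that library, and Stag2 lay below it.

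**Figure D1:**
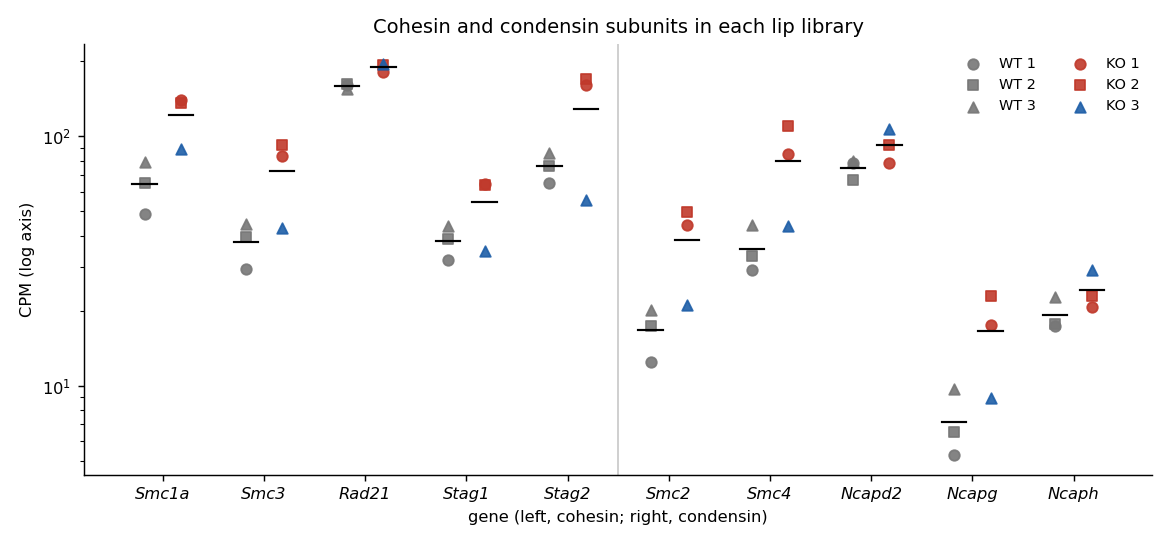
Level of each of the 10 genes (CPM, log axis) in the 3 WT libraries (grey) and the 3 libraries labelled KO (red, KO 1 and KO 2; blue, KO 3), with bars at group means. For 7 genes KO 1 and KO 2 lie above all WT libraries and KO 3 is the lowest KO library, whereas for Rad21, Ncapd2 and Ncaph KO 3 is the highest library.

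The cohesin ATPases Smc1a and Smc3 form the arms of the ring. Smc1a (chromosome X, 152016428 to 152062694, plus strand) had 48.9, 64.9 and 78.6 CPM in WT 1, 2 and 3 and 140.0, 136.2 and 89.4 CPM in KO 1, 2 and 3. Every KO library was above every WT library, and KO 3 lay closer to WT 3 than to the other KO libraries. The fold change was 1.901 (log2 0.93, SE 0.23, adjusted p = 0.0537 by edgeR's quasi-likelihood test), with a 95% interval of the log2 value from 0.40 to 1.45. Smc3 (chromosome 19, 53600398 to 53645833, plus strand) had 29.4, 39.3 and 44.6 CPM in WT and 83.2, 92.0 and 42.9 CPM in KO. KO 3 fell within the WT range, so the groups overlapped (log2 fold change 0.95, SE 0.29, adjusted p = 0.0835, interval 0.28 to 1.61).

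Rad21, the kleisin that closes the cohesin ring and is cleaved by separase, differed from the ATPases in its profile. Rad21 (chromosome 15, 51962240 to 51991747, minus strand) had 160.8, 162.7 and 155.4 CPM in WT and 180.8, 193.4 and 196.1 CPM in KO. The groups did not overlap and both were tight, with SDs of 3.79 and 8.14 CPM, but the difference was small (log2 fold change 0.25, SE 0.12, adjusted p = 0.185, interval -0.01 to 0.52). On the log2 scale its SD over the WT libraries was 0.03, lower than that of all but 2.59% of tested genes. KO 3 was the highest of the 6 libraries, the reverse of its rank among the KO libraries for Smc1a and Smc3.

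Stag1 and Stag2 are alternative subunits that bind the kleisin, and a cohesin ring carries one or the other. Stag2 (chromosome X, 42149317 to 42277185, plus strand) had 65.2, 76.1 and 86.0 CPM in WT and 160.5, 170.5 and 55.4 CPM in KO. KO 1 and KO 2 were far above WT while KO 3 was the lowest of the 6 libraries, which gave the widest spread of any member (SD over KO libraries 0.91 on the log2 scale, higher than that of 98.5% of tested genes). Its log2 fold change of 0.77 had an interval from -0.09 to 1.62 (SE 0.37, adjusted p = 0.204). Stag1 (chromosome 9, 100597798 to 100959375, plus strand) had the same contrast among the KO libraries with smaller differences, at 32.0, 38.7 and 43.5 CPM in WT and 64.3, 64.1 and 34.7 CPM in KO. Its log2 fold change was 0.51 (SE 0.25, adjusted p = 0.202, interval -0.06 to 1.08). The ratio of Stag2 to Stag1, each as CPM per kilobase of its longest transcript, was steady in WT at 1.997 ± 0.0399 (SD, n = 3). In KO it was 2.50, 2.67 and 1.60, so that 2 KO libraries lay above the WT range and KO 3 below it.

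The condensin ATPases Smc2 and Smc4 had larger fold changes than the cohesin ones, and KO 3 was again the lowest KO library. Smc2 (chromosome 4, 52439243 to 52488260, plus strand) had 12.4, 17.4 and 20.1 CPM in WT and 44.3, 49.9 and 20.99 CPM in KO. The groups did not overlap, by a margin of less than 1 CPM between KO 3 and WT 3 (fold change 2.31, log2 1.21, SE 0.32, adjusted p = 0.0662, interval 0.46 to 1.95). Smc4 (chromosome 3, 69004738 to 69034623, plus strand) had 29.1, 33.1 and 43.9 CPM in WT and 84.6, 110.5 and 43.7 CPM in KO. KO 3 fell just under the highest WT library (fold change 2.25, log2 1.17, SE 0.32, adjusted p = 0.069, interval 0.43 to 1.91). The proportion of the 2 genes to each other varied little, as the ratio of Smc2 to Smc4 per length was 0.376 ± 0.041 in WT and 0.387 ± 0.029 in KO (SD, n = 3 each). For Smc1a to Smc3 the ratio was 1.75 ± 0.063 in WT and 1.81 ± 0.319 in KO, where KO 3 had the highest value, 2.16.

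The non-SMC subunits of condensin did not share one profile. Ncapg, a HEAT-repeat subunit of condensin I (chromosome 5, 45669919 to 45700546, plus strand), had 5.25, 6.49 and 9.65 CPM in WT and 17.6, 23.0 and 8.90 CPM in KO, with KO 3 inside the WT range. Its fold change of 2.32 (log2 1.21, SE 0.36, adjusted p = 0.0806, interval 0.38 to 2.05) was like those of Smc2 and Smc4. Ncapg overlaps Lcorl on the opposite strand, and the strand setting of the counting is not given in the sources used here. Smc1a, Stag1, Stag2 and Smc2 also overlap annotated genes on the opposite strand, and Stag1, Smc4 and Ncapd2 on the same strand. Lcorl had 5.80, 7.59 and 8.84 CPM in WT and 12.7, 10.6 and 4.29 CPM in KO (log2 fold change 0.31, adjusted p = 0.592). Ncapd2, the other HEAT-repeat subunit (chromosome 6, 125168007 to 125191701, minus strand), had 77.9, 66.7 and 79.9 CPM in WT and 78.5, 92.1 and 107.6 CPM in KO. Here KO 1 lay within the WT range and KO 3 was the highest library (log2 fold change 0.31, SE 0.15, adjusted p = 0.215, interval -0.05 to 0.67). Ncaph, the condensin kleisin (chromosome 2, 127103809 to 127133954, minus strand), had 17.4, 17.6 and 22.6 CPM in WT and 20.7, 23.0 and 29.2 CPM in KO, again highest in KO 3 (log2 fold change 0.34, SE 0.19, adjusted p = 0.251, interval -0.09 to 0.77). The ratio of Ncapg to Ncapd2 per length was 0.079, 0.113 and 0.141 in WT and 0.261, 0.290 and 0.096 in KO. The ratio of Ncaph to Ncapd2 was 0.440 ± 0.053 in WT and 0.449 ± 0.019 in KO.

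Per length, Rad21 was the most abundant member in WT tissue, at 40.4 ± 0.957 CPM per kilobase of its longest transcript (SD, n = 3). Ncapd2 (16.2 ± 1.53), Smc1a (13.7 ± 3.18) and Stag2 (12.3 ± 1.68) came next and overlapped each other as neighbours in the order. A lower group was formed by Smc4 (8.19 ± 1.78), Smc3 (7.79 ± 1.59), Ncaph (7.12 ± 1.09) and Stag1 (6.16 ± 0.935), each overlapping its neighbour. Smc2 (3.08 ± 0.721) and Ncapg (1.79 ± 0.571) were lowest. The steps from Rad21 to Ncapd2, from Stag2 to Smc4 and from Stag1 to Smc2 were larger than the ranges of the 3 WT libraries. The steps from Stag2 to Smc4 and from Stag1 to Smc2 depended on the length used. Per kilobase of all exons of the gene, Stag2 had a WT mean of 9.16 and Smc4 of 6.79. On that scale Stag1 had a WT mean of 3.23 and Smc2 of 3.04. In KO, Rad21 stayed first at 48.1 ± 2.06 CPM per kilobase and Ncapg last at 4.15 ± 1.79.

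Measured against the mean of the 3 WT libraries, the members fell into 2 profiles that cut across the complexes. In KO 1 the log2 difference was between 0.77 and 1.44 for the 4 SMC genes, Stag1, Stag2 and Ncapg, and between 0.07 and 0.18 for Rad21, Ncapd2 and Ncaph. In KO 2 the same 7 genes lay between 0.76 and 1.73 and the other 3 between 0.27 and 0.30. In KO 3 the 7 genes lay between -0.44 (Stag2) and 0.51 (Smc1a), and the other 3 between 0.30 and 0.62. These groupings were seen in the values themselves and carry no test.

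In the quasi-likelihood fit, leaving out KO 3 changed the members' calls more than leaving out any other library. Without it, 7 of the 10 members were called higher in KO, against 16.9% of all tested genes: Smc1a, Smc3, Stag1, Stag2, Smc2, Smc4 and Ncapg, with log2 fold changes from 0.76 for Stag1 to 1.52 for Ncapg and adjusted p-values (edgeR's quasi-likelihood test) from 0.00123 to 0.00676. Rad21, Ncapd2 and Ncaph had 0.23, 0.19 and 0.19 in that fit and were not called. The 7 called are the genes grouped above from these same values, so the calls are no separate support for that grouping. When any one of the other 5 libraries was left out instead, 0 members were called, and 1.41% to 3.22% of all genes were called higher.

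Base composition differed among the members, and how far its order followed the profiles described above depended on the bases counted. Over the longest transcript, Rad21 was lower in GC than Smc1a, which had the other profile. Over coding bases alone, Smc1a (47.7%) was the highest of its profile and lay under Ncaph (48.1%), Rad21 (48.8%) and Ncapd2 (53.9%). The longest transcripts of the 10 members had a median GC content of 42.1%, against 49.9% for all tested genes. Ncapg (34.8%), Stag2 (38.1%), Smc2 (39.7%), Smc4 (40.2%), Stag1 (41.9%) and Smc3 (42.3%) were the 6 members lowest in GC. Rad21 had 44.3%, Smc1a 46.9%, Ncaph 48.3% and Ncapd2 54.0%. At the last codon position the range was wider, from 35.1% in Smc4 to 61.6% in Ncapd2. There Smc1a (57.0%) lay above Rad21 (51.2%) and Ncaph (52.4%). Among the 875 tested genes of at most 40% GC, the median log2 difference from the WT mean was 0.50 in KO 1, 0.46 in KO 2 and -0.23 in KO 3. Among the 2701 genes above 56% GC it was -0.34, -0.28 and -0.10. The WT libraries differed less in the low-GC class, with medians from -0.10 to 0.12.

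**Figure D2:**
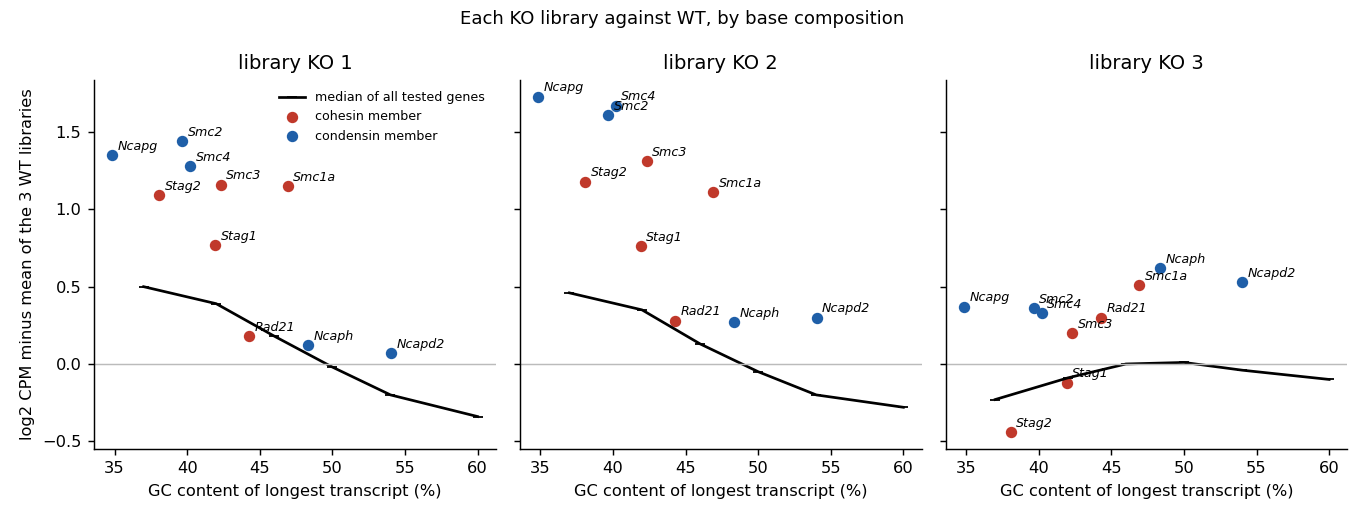
Log2 CPM of each member minus the mean of the 3 WT libraries, plotted against the GC content (%) of its longest transcript, in KO 1, KO 2 and KO 3, with the median of all tested genes in 6 classes of GC as a black line. The line falls from 0.50 to -0.34 in KO 1 and from 0.46 to -0.28 in KO 2, and in KO 3 it starts at -0.23, and most members lie above it in each library.

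When the trend of each library on GC content was removed, a fit chosen after the data were seen, 9 of the 10 fold changes became smaller and all stayed positive. Smc2 (log2 fold change 0.83, adjusted p = 0.0437), Smc1a (0.80, 0.049) and Ncapd2 (0.42, 0.0407) were then called higher by edgeR's quasi-likelihood test, beside 5.64% of all tested genes. Ncapg and Smc4 had 0.80 and 0.79 with adjusted p-values of 0.0665 and 0.0557, and Smc3 had 0.63 (0.0838). Stag2 decreased from 0.77 to 0.34, Stag1 from 0.51 to 0.19 and Rad21 from 0.25 to 0.05. Ncapd2 was the exception, with an increase from 0.31 to 0.42. What part of the members' differences goes with composition and what part with genotype was not tested beyond this fit.

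**Figure D3:**
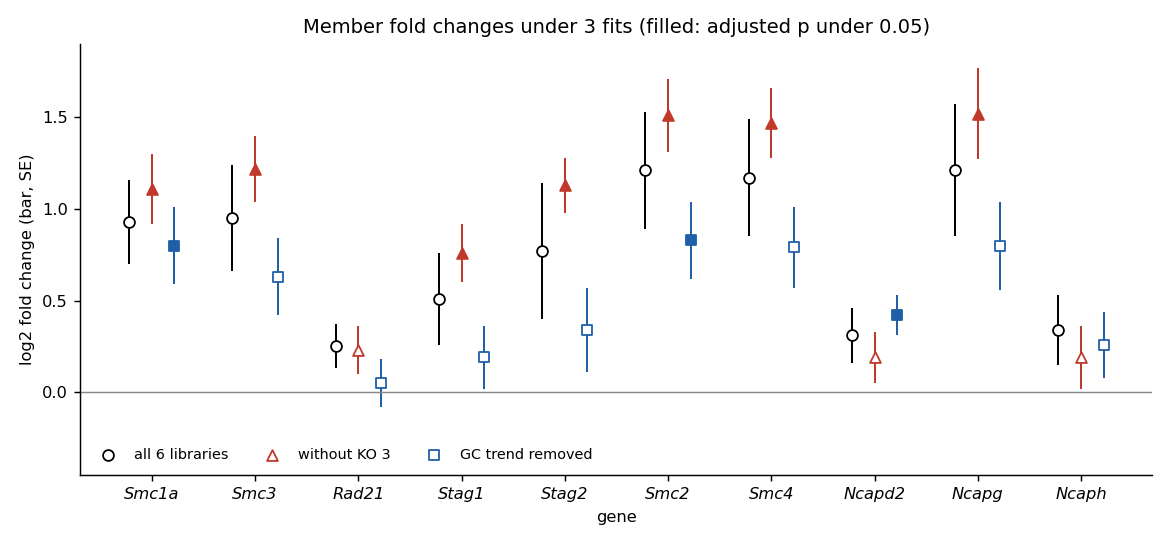
Log2 fold change of each member (bars, SE) with all 6 libraries (circles), without KO 3 (triangles) and with the GC trend removed (squares), where filled symbols have an adjusted p under 0.05. No circle is filled, 7 triangles are, and the filled squares are Smc1a, Smc2 and Ncapd2.

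Of the 29 other genes listed for the SMC pathway, 27 were tested (Smc1b was under the filter and Rad21l was not analysed here) and 0 were called in either direction. Of the 27, 8 were higher at an unadjusted p under 0.05, beside 13.5% of all tested genes, and 0 lower. The edgeR exact test called 6 of them higher and DESeq2 called 7, where they called 7.76% and 8.93% of all genes. Their median log2 fold change was 0.48, and 22 of the 27 values were positive. Without KO 3, 13 were called higher. That fit called 16.9% of all tested genes higher, the share that applies to each count without KO 3 below. Sgol1, Sgol2, Ncapg2, Ncapd3, Esco1, Esco2 and Nipbl are on a list of cell cycle genes that the study drew up from these same libraries, and are no independent evidence of a direction. Among the condensin II subunits, whose complex is nuclear throughout interphase, Ncapg2 had the highest log2 fold change, 0.95 (interval 0.25 to 1.64, adjusted p = 0.0923), and Ncaph2 the lowest, 0.02 (-0.31 to 0.35). Without KO 3, Ncapg2 was called higher (1.21, adjusted p = 0.00381) and Ncaph2 had -0.085 (adjusted p = 0.650). The difference between the G and H subunits was not tested.

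Genes that load or release cohesin all had positive values, with 0 of 5 called. Nipbl, the loader, was highest at 0.78 (interval 0.04 to 1.52, adjusted p = 0.154), and its partner Mau2 lowest at 0.22 (-0.19 to 0.62). Nipbl had 64.4, 81.2 and 96.1 CPM in WT and 183, 159 and 72.3 CPM in KO, with KO 3 near WT as for the SMC genes. Without KO 3, 4 of the 5 were called higher, Nipbl at 1.09 (adjusted p = 0.00257) among them, and Mau2 had 0.34 (adjusted p = 0.140). Of 6 genes that acetylate or protect cohesin, 0 were called. Sgol2, a shugoshin that guards centromeric cohesin, was highest at 1.105 (0.27 to 1.94, adjusted p = 0.0975) and Cdca5, which encodes sororin, lowest at 0.15 (-0.30 to 0.61). Without KO 3, 4 of the 6 were called higher, with Sgol2 at 1.34 (adjusted p = 0.0130). Separase and securin, which end cohesion at anaphase, had 0.05 for Espl1 (-0.32 to 0.41) and -0.22 for Pttg1 (-0.65 to 0.22).

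In the SMC5/6 complex, which acts in DNA repair, and the related Smchd1, 0 of 7 genes were called. Smc5 was highest at 0.95 (interval -0.02 to 1.92, adjusted p = 0.175), with 51.0, 49.5 and 15.1 CPM in KO 1, 2 and 3, and Ndnl2, an older symbol of the subunit gene Nsmce3, was lowest at -0.23 (-0.58 to 0.13). Without KO 3, 3 of the 7 were called higher, with Smc5 at 1.34 (adjusted p = 0.00207). Ctcf, whose protein sets the borders of cohesin loops, had 0.23 (-0.08 to 0.54) and its germ line relative Ctcfl 0.48 (-0.29 to 1.25). Of the germ line cohesin subunits, Smc1b was under the filter, at 0 to 0.127 CPM in WT and 0.137 to 0.492 CPM in KO. Rec8 had -0.11 (-0.60 to 0.39) and Stag3 -0.78 (-1.71 to 0.14), at 1 to 4 CPM. The Stag3 value rested on WT 2, at 3.31 CPM against at most 1.44 CPM in every other library, and was -0.17 without it. Without KO 3, 0 of the tested separase, securin, CTCF and germ line genes were called.

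**Figure D4:**
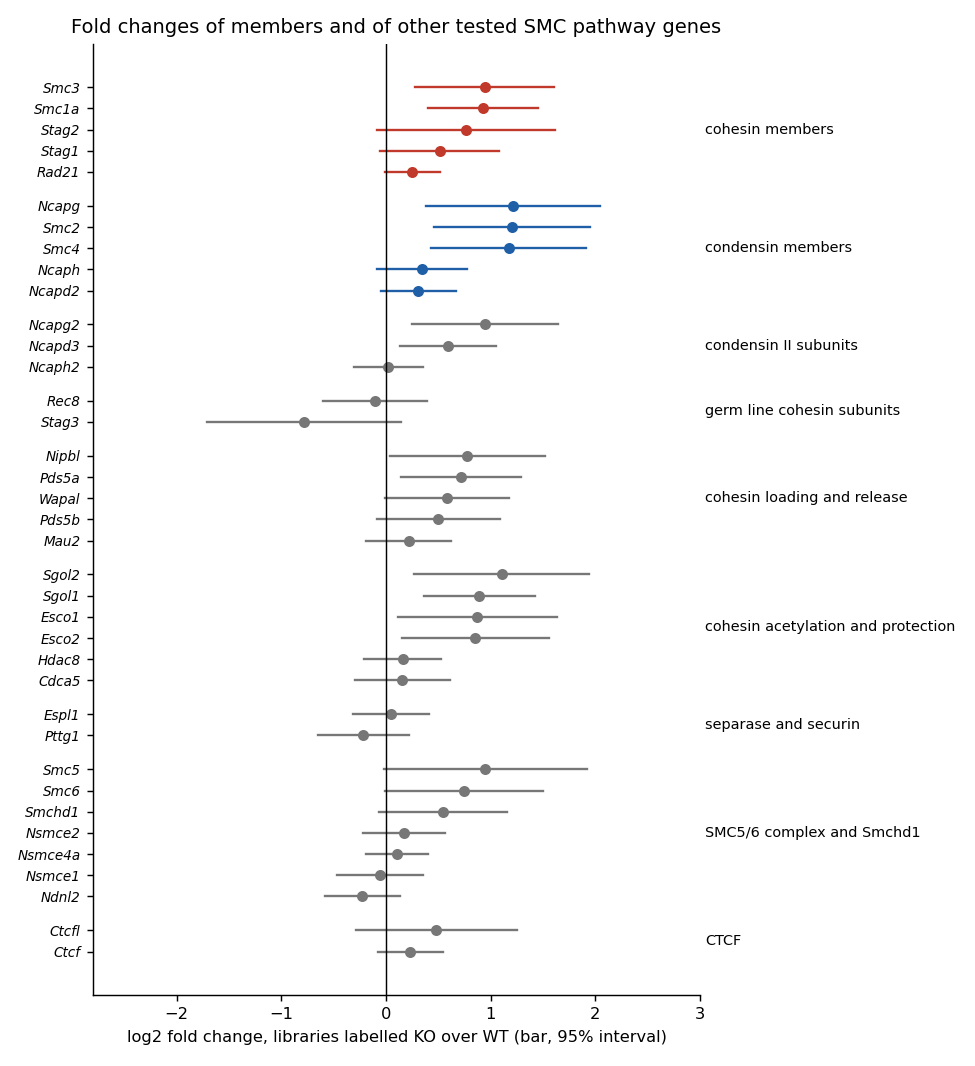
Log2 fold change (libraries labelled KO over WT) with its 95% interval for the 10 members and the 27 other tested SMC pathway genes, grouped by role. The members run from 0.25 to 1.21, and the other genes from -0.78 to 1.105, and none passed the threshold.

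Of 20 cycling cell genes, 4 were called higher in KO and 0 lower, beside 4.38% and 2.09% of all tested genes. Their median log2 fold change was 0.95, with 19 positive values. Without KO 3, 12 were called higher, against 16.9% of all tested genes. Ccnb1, the mitotic cyclin, rose by 1.16 on the log2 scale (adjusted p = 0.00634, edgeR's quasi-likelihood test), Top2a, the chromosome-decatenating topoisomerase, by 1.21 (adjusted p = 0.0313), and Kif20a, a mitotic kinesin, by 0.999 (adjusted p = 0.0333). Ccnb1 had 18.1, 19.7 and 25.1 CPM in WT and 43.2, 52.6 and 44.8 CPM in KO, so KO 3 did not lie near WT for this gene. Ccnb1 stayed called when any 1 library was left out (adjusted p = 0.00185 to 0.0425), whereas Top2a lost its call without WT 1, WT 2, KO 1 or KO 2 (up to 0.130) and Kif20a without WT 1, WT 2 or KO 2 (up to 0.136). Mki67, the common proliferation marker, had 1.28 (interval 0.52 to 2.04, adjusted p = 0.0595), at 332, 361 and 184 CPM in KO. Of 18 DNA replication genes 0 were called (2 higher without KO 3), with a median of 0.31 and 17 positive values. Among them, 1 was higher at an unadjusted p under 0.05 (13.5% of all tested genes). The exact test and DESeq2 each called 1 higher (7.76% and 8.93% of all genes). Pcna, the replication clamp, had 0.08 (-0.29 to 0.44). The summed level of the 20 cycling genes was 431.0 to 726.3 CPM in WT and 905.9 to 1233 CPM in KO.

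The summed levels of marker genes of lip cell types are given beside the members. The WT and KO ranges did not overlap for suprabasal, skeletal muscle and hair markers, and overlapped for the other 4 lists. The 8 suprabasal keratinocyte markers summed to 18220 to 22970 CPM in WT and 29300 to 45080 CPM in KO (1 of 8 called higher), and the 8 basal markers to 11240 to 12120 and 11510 to 12780 CPM (1 of 8 called higher). The 12 skeletal muscle markers summed to 12790 to 16160 CPM in WT and 6554 to 9901 CPM in KO (2 of 12 called lower), and the 11 hair matrix and shaft markers to 6822 to 8607 and 3842 to 5780 CPM (1 of 11 called lower). Dermal fibroblast markers lay at 2873, 3640 and 6865 CPM in KO 1, 2 and 3, against 6564 to 8508 CPM in WT, so KO 3 was the KO library nearest to WT for them as for the SMC genes. Macrophage markers (412.5 to 456.5 CPM in WT, 305.8 to 445.6 CPM in KO) and T cell markers (124.9 to 183.1 and 72.4 to 138.3 CPM) were also highest in KO 3 among the KO libraries. KO 3 was likewise the KO library nearest to WT for the suprabasal (29300 CPM), muscle (9901 CPM) and hair (5780 CPM) sums. The basal sum, 12750 CPM in KO 3, was the exception. The T cell sum was lower in KO 1 and KO 2, while 5 of the 6 tested T cell markers had a positive log2 fold change (median 0.39). None of the 8 fibroblast, 8 macrophage or 6 tested T cell markers was called. With all libraries, 4.38% of all tested genes were called higher and 2.09% lower. Without KO 3, 6 suprabasal and 1 basal markers were called higher, and 10 muscle, 8 hair, 4 fibroblast, 3 macrophage and 1 T cell markers were called lower. That fit called 16.9% of all tested genes higher and 16.2% lower, so 1 of 8 basal and 1 of 6 T cell markers are near those shares. No marker was at 0 in all libraries. Their part in the members' values was not tested.

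Genes whose profile over the 6 libraries was close to the mean profile of the 5 cohesin members included U2surp, Pds5a, Kdm5a and Usp47, with root mean square differences of 0.0404 to 0.0528 on the log2 CPM scale. Pds5a, a cohesin-associated factor, was on the pathway list as well. The 5 genes closest to the mean of the 5 condensin members were Eif5b, Met, Cep192, Mdn1 and Nusap1, at 0.074 to 0.101, and Nusap1 was one of the 20 cycling cell genes. These means blend the 2 profiles described above. Stag1 lay 0.086 from the cohesin mean and Rad21 0.374, while Smc4 lay 0.250 and Ncapd2 0.413 from the condensin mean. The cohesin members Smc1a (0.133), Smc3 (0.188) and Stag1 (0.224) lay closer to the condensin mean than any condensin member did. Stag2 (0.366) and Rad21 (0.387) did not.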

How the data were processed

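The data are RNA-Seq counts per gene from top lip tissue, 1 paired-end library for each of 3 WT and 3 KO mice, grouped by sample title. Per the submitters' processing notes and the paper's methods, reads were mapped to GRCm38 with TopHat2 2.0.8 and Bowtie2 2.1.0, and HTSeq counted reads assigned uniquely to a gene. The deposited values are whole counts, not normalized, for 26814 gene symbols, with 0 entries naming no gene. How reads over several genes and read strand were treated is not given in the sources used here. Reads shared between near-identical genes are lost under unique counting.

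The 15009 genes that reached 1 CPM in 3 or more libraries were scaled by TMM and compared with edgeR 4.0.16 (glmQLFit with legacy=FALSE, glmQLFTest) in R 4.3.3, with Benjamini-Hochberg adjustment over all tested genes and a threshold of 0.05. CPM values use TMM library sizes. Intervals are 95% intervals from the fit. Alternatives were edgeR's exact test, DESeq2 1.42.0 (Wald test, or its size factors alone), limma 3.58.1 (voom), the older quasi-likelihood fit, library size alone, upper-quartile scaling, no filter, at least 10 counts in every library, a block for replicate number and each of the 6 libraries left out. Removal of lowess trends (span 0.3) on GC content or transcript length was added after the data were seen. Figures used Python 3.11.15 with matplotlib 3.10.9. The fit was tested on simulated data.

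Positions, lengths and GC content (of the longest transcript) come from GENCODE M21 on GRCm38, which has a GC value for 14884 tested genes. Promoters are RefSeq's. Genes were named by rule: all 10 members, all called pathway genes and the highest and lowest of each pathway sublist, the 3 called cycling or replication genes with the lowest p, Mki67, Top2a, Pcna, Gtf2ird1 and the 5 nearest profiles, of which 1 is not reported here. Lcorl was added for its overlap. The members and lists were chosen with earlier results of these data known. The p-values measure the spread between 3 mice per genotype. A count of 3 in a library corresponds to 0.0984 to 0.153 CPM.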

Additional observations from a re-analysis of the deposited data

How the results depend on the processing

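All 10 member fold changes stayed positive under the 10 alternative settings, the 2 trend removals and each left-out library. No member was called higher with all libraries in the quasi-likelihood fit, but the edgeR exact test called 5 members, 6 other SMC pathway genes, 12 cycling cell genes and 1 DNA replication gene. DESeq2's Wald test called 5, 7, 13 and 1, where these tests called 7.76% and 8.93% of all genes higher. Without a filter, 3 members, 1 pathway gene and 10 cycling genes were called, with DESeq2's size factors 1 member, and with the GC trend removed 3 members. These fits called 3.41%, 4.76% and 5.64% of their tested genes higher, and 26814 genes were tested without a filter. Leaving out 1 library gave 0 to 7 members, 0 to 13 pathway genes, 1 to 12 cycling genes (4 with all) and 0 to 2 replication genes; the highest counts were those without KO 3, and cycling calls went to 1 without WT 1, WT 2 or KO 2 and to 2 without KO 1. Without WT 2, 1 replication gene was called. The fits with 1 library left out called 1.41% to 16.9% of all tested genes higher. No gene of the 4 lists was called lower in any of these fits. The remaining alternatives gave the same number of members. The cause of these changes was not tested.

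Over all genes, calls were 1165 higher and 1073 lower by the exact test, 1511 and 898 by DESeq2, 915 and 204 without a filter, 494 and 204 with at least 10 counts in every library, 846 and 881 without the GC trend, 651 and 490 without the length trend, 614 and 404 with upper-quartile scaling, and, with 1 library left out, 208 to 2496 higher and 18 to 2395 lower, beside 657 and 314 with all. With the replicate block, 0 members and 4 cycling genes were called (Top2a lost its call, adjusted p = 0.0568), and 580 higher and 217 lower over all genes. Same-numbered libraries deviated together in only 2 of 3 pairs (correlations -0.193, 0.313 and 0.332), so the numbers were not taken to pair mice, and not every library correlated best with its own number.

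Values near 0 turned direction: Pcna to -0.0836 without the GC trend and -0.0064 without WT 3 (-0.0064 to 0.2809 over the left-out libraries); Ncaph2 to -0.0334 with upper-quartile scaling, -0.0289 without the length trend and -0.0853 without KO 3 (-0.0853 to 0.1332); Espl1 to -0.005, -0.0496 and -0.0333 under the same 3 (-0.0333 to 0.2131); and Rec8 to 0.0676 without the GC trend and 0.0642 without KO 2 (-0.2326 to 0.0642). The lowest count of a member was 145 (Ncapg in WT 1).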
